A study of Mus musculus with 5 samples.

Results

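The kinesin genes were every gene symbol in the count tables made of Kif or Kifc and a number, with an optional letter and digit after it. The rule took 41 of 34590 symbols, and 39 of them had enough reads to be tested, among 16229 genes tested in all. Cerebral cortex of mouse embryos was sampled at stage E14.5, and RNA was sequenced in 3 libraries of the medial and 2 of the lateral part. All were untreated and wild type on a mixed strain background, and the tissue was obtained by dissection with no cell sorting stated, so each library can hold RNA of every cell type of its region. Nothing in the labels says whether libraries of a region came from separate embryos, and p-values then measure only the spread between these libraries, which may be technical. Each medial library held between 27406370 and 36460274 gene reads and each lateral library between 56147129 and 66981952, and kinesin reads made up between 0.532% and 0.547% of them in medial and between 0.566% and 0.567% in lateral libraries. Defining genes of cortex were present in all libraries: the radial glia factor Pax6 had between 206 and 224 CPM (read counts scaled to the total of the library) in medial and between 153 and 194 CPM in lateral libraries, and the cortical neuron factor Neurod6 between 215 and 540 CPM in medial and between 924 and 1183 CPM in lateral libraries.

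Kinesins are motor proteins that hydrolyse ATP to move along microtubules or to take microtubules apart at their ends. In a dividing cell they separate the spindle poles, align chromosomes and complete cytokinesis. In a neuron, which no longer divides, others carry vesicles, mitochondria and proteins along axons and dendrites, and some carry cargo into the primary cilium, where hedgehog signals are received. The cortex at this stage holds both dividing radial glia and newly formed neurons. From these known roles 14 genes were placed with mitosis and cytokinesis, 14 with cargo transport, 9 with cilia and centrioles and 4 with other roles. The division is not strict: Kif3a and Kif3b serve both cilia and neuronal transport, and Kif2a, placed with other roles, also acts at spindle poles. The symbol rule leaves out motors with other names, such as the kinetochore motor Cenpe.

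The kinesins that passed as higher in medial cortex were the mitotic Kif20a, Kif23, Kif15, Kif2c and Kif20b with Kif1c, Kif24 and Kif9, and those that passed as lower were Kif3c, Kif5a, Kif3a and Kifc3. Of the 39 genes tested, 8 were higher in medial cortex and 4 were lower at an adjusted p under 0.05 (edgeR quasi-likelihood test, Benjamini-Hochberg adjustment over all genes tested), and 27 did not pass. Over all genes tested 4.62% were higher and 5.1% were lower, 9.72% in either direction. The median log2 fold change, medial over lateral, was 0.37 over the kinesins and 0.01 over all genes tested. Among the mitotic kinesins 5 of 13 tested were higher and 0 lower with a median of 0.52, and another 6 had an adjusted p between 0.05 and 0.1. Among the transport kinesins 1 of 14 was higher and 2 were lower, with a median of −0.09. Of the 8 ciliary genes tested 2 were higher and 1 lower, and of the other 4 genes 1 was lower and 0 higher. Every medial library lay above every lateral one in 19 kinesin genes and below in 11, so the groups did not overlap in 30 of 39, where 53.3% of all genes tested did not overlap. The called genes lay close to the threshold, with adjusted p between 0.0296 and 0.0492. Without medial library 2 no kinesin passed in edgeR, and 0 of all genes tested did. In that fit 15 kinesins were higher and 8 lower at an unadjusted p under 0.05, with 2038 and 1997 of all genes. Without medial library 3 only Kif1c passed, where 245 of all genes were higher and 245 lower. There 16 kinesins were higher and 10 lower at an unadjusted p under 0.05, with 2553 and 2578 of all genes. Leaving out lateral library 1 or 2 keeps only 1 lateral library, and the median of the mitotic kinesins was then 0.69 or 0.37. With all libraries DESeq2 called 15 kinesins higher and 8 lower, where it called 1737 of the 16229 genes tested higher and 1790 lower. The edgeR fit with the tag carried by the names of the tables as a block called 19 kinesins higher and 10 lower. That fit left 1 residual degree of freedom and called 2634 of all genes higher and 2727 lower. Medial library 2 shares its tag with lateral library 1, and medial library 3 with lateral library 2. Whether libraries with 1 tag came from the same embryos is not stated in the labels. Leaving out 1 library moved the log2 fold change of 16 of the 27 kinesins that did not pass by over 1.5 times.

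**Figure D1:**
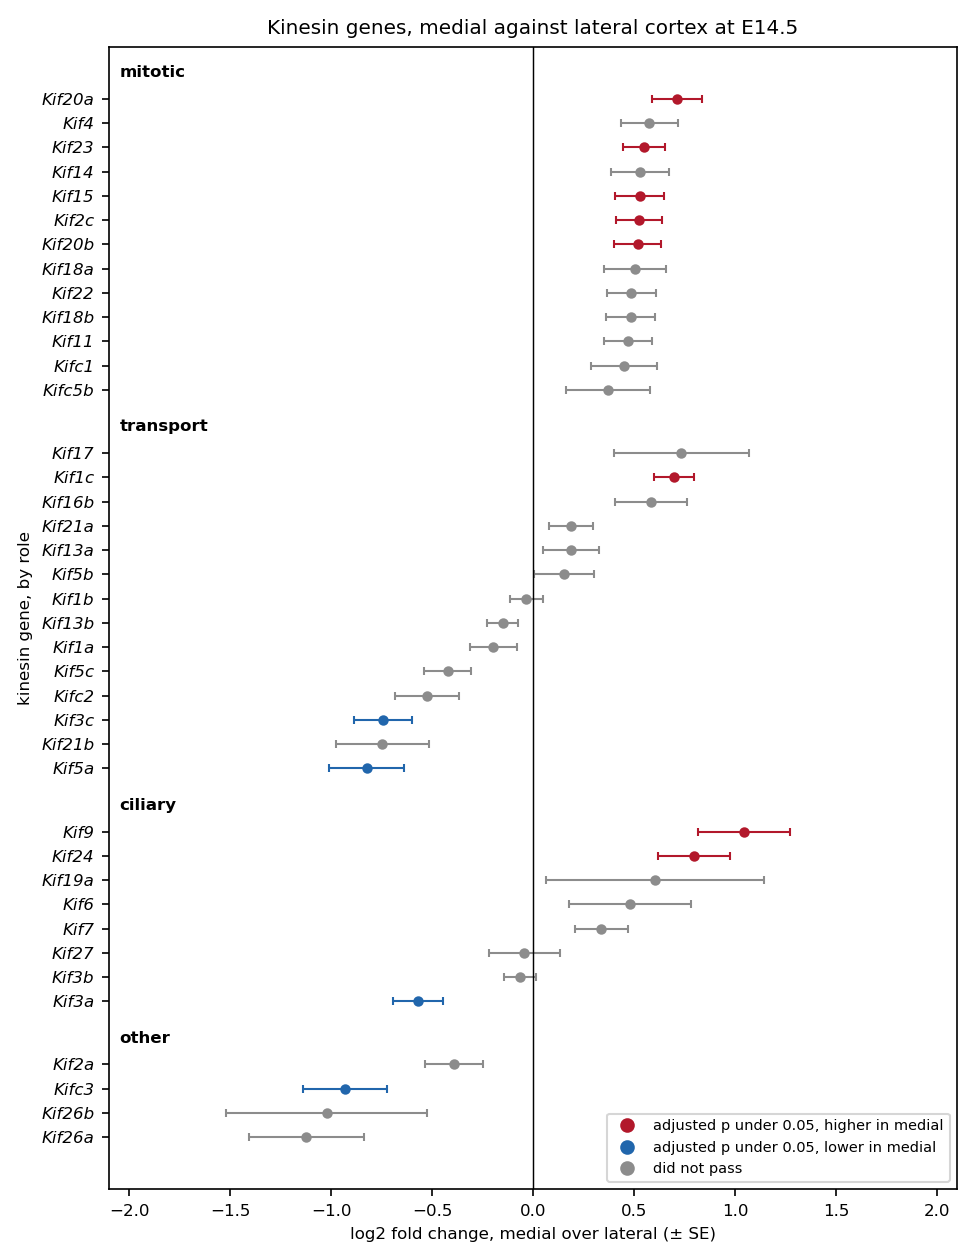
Log2 fold change of each of the 39 tested kinesin genes, medial over lateral cortex, with its standard error (SE), grouped by role. All 13 genes placed as mitotic lie right of 0, between 0.37 and 0.71, while the 14 transport genes spread from −0.82 to 0.74.

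Motors of the central spindle and of cytokinesis included 3 genes that passed. Kif20a encodes the motor that brings the chromosomal passenger complex to the central spindle, and in mice its loss makes cortical progenitors leave the cell cycle early. It had 166, 148 and 149 CPM in medial libraries 1 to 3, against 105 and 82.8 CPM in lateral libraries 1 and 2. The groups were separate, and the lowest medial library exceeded the highest lateral one 1.41-fold. The log2 fold change was 0.71 (SE 0.12, adjusted p = 0.0340). Of the exonic bases of Kif20a, 31.8% also belong to exons of Cdc23 on the opposite strand in GENCODE M21, and the libraries did not mark the strand. Cdc23 had a mean of 180 CPM ± 1.66 (SD, n = 3) in medial cortex, against 169 ± 0.576 (SD, n = 2) in lateral cortex, which is a difference of 0.09 on the log2 scale (adjusted p = 0.390).

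Kif23 encodes the motor of centralspindlin, the complex that bundles midzone microtubules. It had 108, 108 and 101 CPM in the medial libraries, against 78.9 and 65.1 CPM in the lateral ones. The medial libraries lay within 1.06-fold of each other and all were above both lateral ones. Its log2 fold change was 0.55 (SE 0.10, adjusted p = 0.0372). Kif20b, a motor of the last step of cytokinesis whose loss in mice gives a small cortex, had 91.3, 85.5 and 78.0 CPM in the medial libraries, against 64.9 and 53.7 CPM in the lateral ones. Its log2 fold change was 0.52 (SE 0.12, adjusted p = 0.0485). Without medial library 1 it did not pass (adjusted p = 0.0546), nor did it with library size alone as scaling (adjusted p = 0.0502). Kif14, which works with citron kinase at the midbody, had 46.8, 39.5 and 37.7 CPM in the medial libraries, against 31.7 and 25.6 CPM in the lateral ones. The groups did not overlap, but the gene did not pass (0.53, SE 0.14, adjusted p = 0.0673).

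Of the motors that build the bipolar spindle, Kif15 passed. Kif11 slides antiparallel microtubules apart and is needed for a bipolar spindle, and human carriers of KIF11 mutations can have microcephaly. It had 306, 261 and 266 CPM in the medial libraries, against 218 and 183 CPM in the lateral ones. All medial values were above the lateral values, but the log2 fold change of 0.47 (SE 0.12) did not pass (adjusted p = 0.0568). Kif15, which can stand in for Kif11, had 187, 163 and 154 CPM in the medial libraries, against 126 and 107 CPM in the lateral ones. It passed with a difference of 0.53 on the log2 scale (SE 0.12, adjusted p = 0.0492), the highest adjusted p of the called kinesins. It did not pass with library size alone (adjusted p = 0.0511), the older edgeR test (0.0518), reads thinned to the smallest library (0.0586) or no low-count filter (0.0786). Kifc1, a minus-end motor that focuses spindle poles, had a mean of 48.0 CPM ± 3.66 (SD, n = 3) in medial cortex, against 35.2 ± 8.42 (SD, n = 2) in lateral cortex and did not pass (0.45, SE 0.16, adjusted p = 0.123). Its near copy Kifc5b had a mean of 20.4 CPM ± 2.31 (SD, n = 3) in medial cortex, against 15.8 ± 4.65 (SD, n = 2) in lateral cortex. It was the mitotic gene whose groups overlapped, and it did not pass (0.37, SE 0.21, adjusted p = 0.275). Of all windows of 100 bases, 23.7% of the Kifc1 transcript and 21.2% of the Kifc5b transcript occur unchanged in the other, so the split of reads between them is uncertain.

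Among the motors that move chromosomes or trim microtubules at the kinetochore, Kif2c passed. Kif2c takes microtubule ends apart and corrects wrong attachments. It had 96.5, 92.4 and 95.9 CPM in the medial libraries, against 73.6 and 58.4 CPM in the lateral ones. The medial libraries were within 1.04-fold of each other, while the lateral pair differed 1.26-fold. The log2 fold change was 0.52 (SE 0.11, adjusted p = 0.0456). The chromokinesin Kif4, which acts with Prc1 at the midzone, had a mean of 148 CPM ± 16.9 (SD, n = 3) in medial cortex, against 99.0 ± 16.3 (SD, n = 2) in lateral cortex and had a larger log2 fold change with a wider error (0.58, SE 0.14, adjusted p = 0.0556). Kif22, which pushes chromosome arms away from the poles, had a mean of 91.4 CPM ± 1.99 (SD, n = 3) in medial cortex, against 65.2 ± 11.9 (SD, n = 2) in lateral cortex. Its log2 fold change of 0.49 did not pass (adjusted p = 0.0571). Kif18a, which dampens chromosome movements at the metaphase plate, differed by 0.50 on the log2 scale without passing (SE 0.15, adjusted p = 0.0842). Kif18b, which shortens astral microtubules, by 0.48 (SE 0.12, adjusted p = 0.0565). Kif2b was not tested: it had 3 reads in medial library 3 and 0 in each of the others, where 0 reads still permit as much as 0.105 CPM.

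The mitotic genes varied together from library to library. Medial library 1 was the highest for 12 of the 13, medial library 2 for Kifc5b, and lateral library 2 was the lowest for all 13. Lateral library 1 exceeded lateral library 2 by between 1.19-fold and 1.53-fold in each of them. Their summed level was 1470, 1330 and 1290 CPM in the medial libraries, against 1050 and 841 CPM in the lateral ones. Genes that mark dividing cells had the same order of groups: the sum over 8 of them was 3850, 3040 and 3140 CPM in the medial libraries, against 2370 and 2020 CPM in the lateral ones. In that list edgeR called 3 of 8 higher and 0 lower, where 4.62% of all genes tested were higher. The median log2 fold change was 0.62. All 8 were higher at an unadjusted p under 0.05, where 2588 of the 16229 genes tested were. DESeq2 called 8 of 8 higher, where it called 1737 of all genes higher. In bulk tissue fewer cells of a type and less RNA per cell cannot be told apart.

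**Figure D2:**
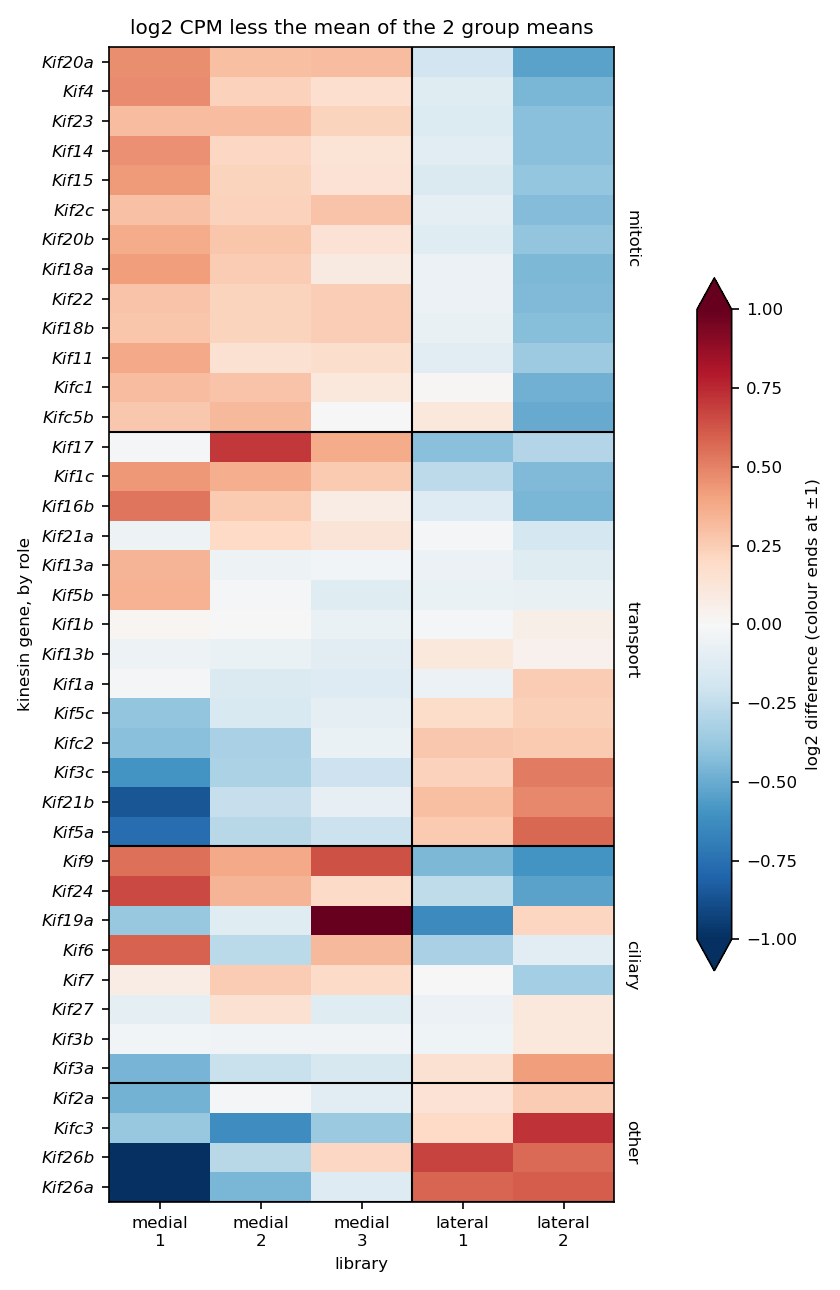
Log2 CPM of each tested kinesin gene in each library less the mean of the 2 group means, by role, with medial libraries on the left. Red is above and blue below that mean. The mitotic block is red in the medial libraries and pale or blue in the lateral ones, apart from Kifc5b in medial library 3 and lateral library 1, and lateral library 2 is the lowest for all 13 genes.

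Promoter sequences are shown because most mitotic kinesin genes carry the letters TTTGAA, which were in no transport promoter examined. TTTGAA is a form of the cell-cycle homology region, an element through which genes of late cell cycle are repressed in resting cells. CCAAT is the box bound by the factor NF-Y, often found near it. Only these exact letters were searched, and other forms of the element were not. RefSeq promoters of build GRCm38.p6, from 250 bases before to 50 after the first listed start of each gene, were available for 33 of the 41 members, all but Kif13b, Kif19a, Kif20a, Kif21b, Kif5a, Kif5b, Kifc2 and Kifc3. Both strands were searched, so that TTCAAA and ATTGG count as matches, and the motifs can overlap each other only at an end base. TTTGAA was in 11 of 13 mitotic promoters (84.6%), 0 of 9 transport promoters, 1 of 8 ciliary and 1 of 3 other promoters, against 18.1% of 27025 genes with a promoter and 11.3% of the 10259 among them that were tested. CCAAT was in 9 of the 13 mitotic promoters (69.2%) and 1 of the 9 transport promoters, against 37.9% of all. It was also in 5 of 8 ciliary promoters (62.5%). Within 50 bases of the start, a window chosen after the positions were seen, 9 of 13 mitotic promoters held TTTGAA. The share was 4.92% of all promoters and 2.9% of those of tested genes. These 13 include Kif2b, which was not tested and holds no TTTGAA, and lack Kif20a. A match is a description of letters, not of a bound site.

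The mitotic genes that passed and had a promoter are shown first, from 120 bases before to 30 after the start, 5′ to 3′ on the gene's strand, with both motifs in capitals. Kif23 lies at chr9:61946770-61946919 on the minus strand, Kif15 at chr9:122950961-122951110 on the plus strand, Kif20b at chr19:34922238-34922387 on the plus strand and Kif2c at chr4:117178743-117178892 on the minus strand.
Kif23: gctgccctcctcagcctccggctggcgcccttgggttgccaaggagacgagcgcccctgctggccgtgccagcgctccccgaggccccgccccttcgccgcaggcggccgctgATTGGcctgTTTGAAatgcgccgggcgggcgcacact
Kif15: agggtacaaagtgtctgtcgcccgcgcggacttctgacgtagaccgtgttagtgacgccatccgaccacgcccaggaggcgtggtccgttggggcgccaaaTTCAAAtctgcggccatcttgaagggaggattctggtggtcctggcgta
Kif20b: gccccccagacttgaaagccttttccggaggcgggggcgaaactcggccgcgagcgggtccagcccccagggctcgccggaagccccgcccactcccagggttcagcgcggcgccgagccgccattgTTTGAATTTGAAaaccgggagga
Kif2c: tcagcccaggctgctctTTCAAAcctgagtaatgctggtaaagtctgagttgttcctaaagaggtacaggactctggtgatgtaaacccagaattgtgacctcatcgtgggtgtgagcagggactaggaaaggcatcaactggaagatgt
In Kif23 the element begins 2 bases after the start, with a CCAAT box on the opposite strand 7 bases before the start. Kif20b holds it in tandem, beginning 7 and 13 bases after the start. Kif15 holds it on the opposite strand 19 bases before the start, and once more 234 bases before the start, outside the stretch shown. In Kif2c it stands on the opposite strand 103 bases before the start.

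Kif11 and Kif22, which missed the threshold, each hold both motifs before the start, at chr19:37376262-37376411 on the plus strand and chr7:127042391-127042540 on the minus strand.
Kif11: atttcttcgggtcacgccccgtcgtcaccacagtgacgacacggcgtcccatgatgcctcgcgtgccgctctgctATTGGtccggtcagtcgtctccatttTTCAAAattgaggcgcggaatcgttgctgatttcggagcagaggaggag
Kif22: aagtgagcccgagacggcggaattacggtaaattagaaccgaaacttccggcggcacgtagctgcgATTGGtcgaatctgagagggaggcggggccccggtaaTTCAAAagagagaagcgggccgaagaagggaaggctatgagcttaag
The element begins 19 bases before the start in Kif11 and 17 bases before it in Kif22, both on the opposite strand, with a CCAAT box 45 bases before the start in Kif11 and 54 in Kif22. Kif22 holds each motif once more, farther from the start than the stretch shown.

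For contrast 4 of the called genes outside the mitotic group are shown: Kif24 (chr4:41464819-41464968 on the minus strand) and Kif1c (chr11:70700428-70700577 on the plus strand), which were higher in medial cortex, and Kif3a (chr11:53567249-53567398 on the plus strand) and Kif3c (chr12:3365012-3365161 on the plus strand), which were lower.
Kif24: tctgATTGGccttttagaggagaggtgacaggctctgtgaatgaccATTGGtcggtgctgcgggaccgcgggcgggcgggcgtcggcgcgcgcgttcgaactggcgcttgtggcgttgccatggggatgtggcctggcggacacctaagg
Kif1c: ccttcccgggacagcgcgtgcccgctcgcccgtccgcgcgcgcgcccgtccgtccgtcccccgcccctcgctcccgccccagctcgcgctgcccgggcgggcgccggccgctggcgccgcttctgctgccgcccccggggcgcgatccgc
Kif3a: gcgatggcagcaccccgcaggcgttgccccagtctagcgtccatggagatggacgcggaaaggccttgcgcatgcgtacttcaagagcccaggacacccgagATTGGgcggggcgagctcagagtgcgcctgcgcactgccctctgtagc
Kif3c: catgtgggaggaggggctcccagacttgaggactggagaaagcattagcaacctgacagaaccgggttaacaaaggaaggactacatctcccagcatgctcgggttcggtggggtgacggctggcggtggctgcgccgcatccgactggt
None of these 4 holds TTTGAA in the searched window, and Kif9, which was called too and is not shown, holds neither motif. The Kif24 stretch does hold the near match TTCGAA, which was not searched for. Kif24 has 4 CCAAT boxes on the opposite strand, of which those 116 and 74 bases before the start are in the stretch shown, and Kif3a has 1, beginning 18 bases before the start.

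Transport kinesins moved in different directions. The conventional kinesin heavy chains Kif5a, Kif5b and Kif5c carry cargo along axons, Kif5a and Kif5c mainly in neurons and Kif5b in most cells. Kif5a had 69.0, 96.6 and 101 CPM in the medial libraries, against 140 and 175 CPM in the lateral ones. All medial values were below both lateral values, with medial library 1 the lowest. The log2 fold change was −0.82 (SE 0.18, adjusted p = 0.0480). Kif5c, the highest kinesin per length of transcript, had 574, 681 and 709 CPM in the medial libraries, against 861 and 894 CPM in the lateral ones. Its groups were separate too, but it did not pass (−0.42, SE 0.12, adjusted p = 0.0683). Kif5b had 473, 368 and 342 CPM in the medial libraries, against 356 and 354 CPM in the lateral ones, and its groups overlapped (0.15, SE 0.15, adjusted p = 0.526).

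The kinesin-2 motors pair a Kif3a subunit with Kif3b or Kif3c and bind the adaptor Kifap3. Kif3c, which is mainly neuronal, had 133, 161 and 174 CPM in the medial libraries, against 235 and 287 CPM in the lateral ones. The groups did not overlap, and the log2 fold change was −0.74 (SE 0.14, adjusted p = 0.0382). Kif3a, the shared subunit, had 88.3, 104 and 109 CPM in the medial libraries, against 136 and 163 CPM in the lateral ones (−0.57, SE 0.12, adjusted p = 0.0467). Kifap3 was lower as well, with 110, 118 and 128 CPM in the medial libraries, against 155 and 192 CPM in the lateral ones (−0.55, SE 0.12, adjusted p = 0.0456). Kif3b, the subunit of the ciliary motor, had a mean of 67.3 CPM ± 0.142 (SD, n = 3) in medial cortex, against 70.5 ± 5.05 (SD, n = 2) in lateral cortex (−0.07, SE 0.08, adjusted p = 0.604). Of the exonic bases of Kif3c, 46.3% also belong to genes on the opposite strand in GENCODE M21, mostly 1110002L01Rik, which differed by −0.04 on the log2 scale (adjusted p = 0.849).

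Kif1c, a kinesin-3 that moves vesicles from the Golgi and is expressed in many tissues, was the transport gene that was higher in medial cortex. It had 71.3, 68.0 and 63.4 CPM in the medial libraries, against 44.2 and 38.9 CPM in the lateral ones. The lowest medial library exceeded the highest lateral one 1.43-fold. Its log2 fold change of 0.70 (SE 0.10, adjusted p = 0.0296) had the lowest p of all kinesins, and it passed in all 9 alternatives that kept all libraries. The synaptic vesicle precursor carriers of the same family did not pass: Kif1a had a mean of 379 CPM ± 19.2 (SD, n = 3) in medial cortex, against 434 ± 66.1 (SD, n = 2) in lateral cortex (−0.20, SE 0.12, adjusted p = 0.289). Kif1b had a mean of 533 CPM ± 16.8 (SD, n = 3) in medial cortex, against 546 ± 20.8 (SD, n = 2) in lateral cortex (−0.03, SE 0.08, adjusted p = 0.813). Kif16b, which moves early endosomes, had 27.1, 22.5 and 19.7 CPM in the medial libraries, against 17.1 and 13.7 CPM in the lateral ones, and did not pass (0.58, SE 0.18, adjusted p = 0.0855). Kif13a and Kif13b, other carriers of this family, had log2 fold changes of 0.19 (adjusted p = 0.399) and −0.15 (adjusted p = 0.231).

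The kinesin-4 relatives Kif21a and Kif21b, which limit microtubule growth, were among the 3 highest kinesins per length in medial and in lateral cortex together with Kif5c. Kif21b, enriched in neurons, had 425, 657 and 725 CPM in the medial libraries, against 945 and 1075 CPM in the lateral ones. Its groups were separate, but medial libraries differed 1.71-fold among themselves and the gene did not pass (−0.75, SE 0.23, adjusted p = 0.0851). Without medial library 1 it was lower in medial cortex (−0.55, adjusted p = 0.0331). Kif21a had 396, 473 and 450 CPM in the medial libraries, against 409 and 363 CPM in the lateral ones, with overlap (0.19, SE 0.11, adjusted p = 0.291). The minus-end motor Kifc2, found in dendrites and axons of mouse neurons, had a mean of 6.87 CPM ± 0.887 (SD, n = 3) in medial cortex, against 9.92 ± 0.0323 (SD, n = 2) in lateral cortex (−0.53, SE 0.16, adjusted p = 0.0811). Kif17, a motor of dendrites and cilia, had between 11 and 18 reads per medial and between 17 and 19 per lateral library and did not pass (0.74, SE 0.34, adjusted p = 0.193).

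**Figure D3:**
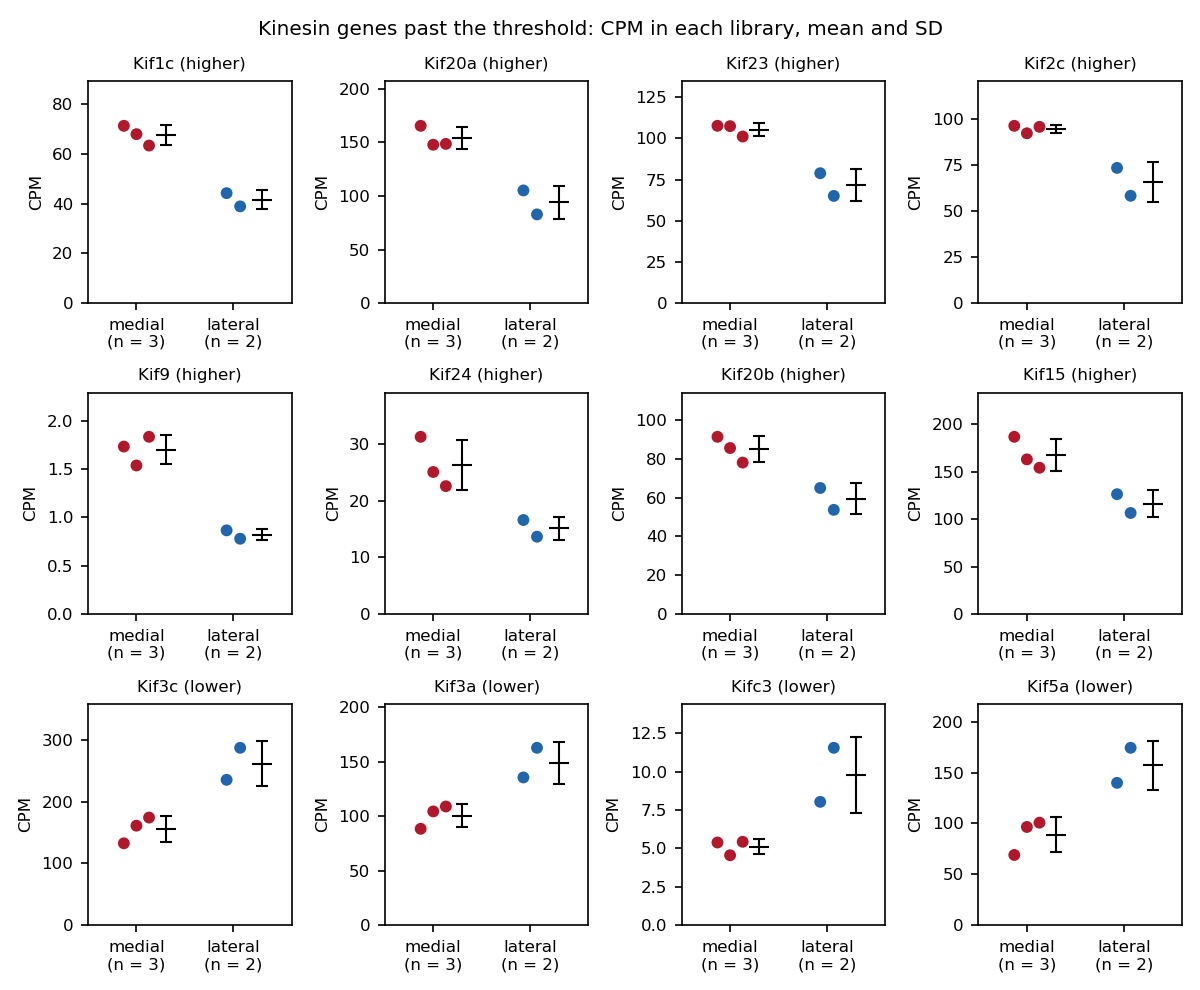
CPM of the 12 kinesin genes past the threshold in each library, with medial libraries (n = 3) left of lateral ones (n = 2), and the mean with its SD beside the points. In all 12 panels the 2 groups of points are separate, for example 166, 148 and 149 against 105 and 82.8 CPM for Kif20a.

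Ciliary and centriolar kinesins included 2 genes higher in medial cortex. Kif24, which acts at the mother centriole to hold back cilium growth, had 31.3, 25.1 and 22.6 CPM in the medial libraries, against 16.6 and 13.7 CPM in the lateral ones. Its groups were separate, with medial library 1 the highest (0.80, SE 0.18, adjusted p = 0.0472). Kif9, a motor of motile cilia, had 50, 44 and 66 reads in the medial libraries, against 57 and 42 reads in the deeper lateral ones. Scaled to depth these are 1.74, 1.54 and 1.84 CPM in medial, against 0.867 and 0.780 CPM in lateral libraries, and the gene passed at 1.05 on the log2 scale (SE 0.23, adjusted p = 0.0466). Without medial library 1 it did not pass (adjusted p = 0.0513). Foxj1, the factor that drives genes of motile cilia, was higher in medial cortex as well (0.68, SE 0.14, adjusted p = 0.0416), and its part in the Kif9 result was not tested.

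Kif7, the kinesin-4 that sits at the ciliary tip and regulates Gli factors in hedgehog signalling, had 34.3, 38.8 and 37.2 CPM in the medial libraries, against 32.5 and 25.7 CPM in the lateral ones. The groups were narrowly separate, and it did not pass (0.34, SE 0.13, adjusted p = 0.138). Of its exonic bases, 20.3% also belong to genes on the opposite strand. Kif27, a relative of Kif7, had a mean of 4.70 CPM ± 0.507 (SD, n = 3) in medial cortex, against 4.83 ± 0.386 (SD, n = 2) in lateral cortex (−0.04, SE 0.17, adjusted p = 0.891). The motile cilium genes Kif6 and Kif19a had at most 64 and 39 reads in any library and did not pass (adjusted p = 0.320 and 0.487). Kif12 was not tested, with 3 reads in medial library 3, 0 in the other medial libraries, and 1 and 3 in the lateral ones.

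The 4 genes with other roles all had lower values in medial cortex, and 1 of them passed. Kifc3, a minus-end motor of the Golgi and of cell junctions, had 5.38, 4.55 and 5.42 CPM in the medial libraries, against 8.03 and 11.6 CPM in the lateral ones (−0.93, SE 0.21, adjusted p = 0.0480). With library size alone as scaling it did not pass (adjusted p = 0.0519), and 14.4% of its exonic bases also belong to genes on the opposite strand. Kif26a, a kinesin that binds microtubules without moving, had the most negative log2 fold change of the family. It had 75.5, 127 and 159 CPM in the medial libraries, against 261 and 265 CPM in the lateral ones. The medial libraries differed 2.11-fold among themselves and the lateral pair 1.02-fold, and the gene did not pass (−1.12, SE 0.29, adjusted p = 0.0579). Without medial library 1 it passed at a log2 fold change of −0.88 (adjusted p = 0.0197). Its paralog Kif26b had 10.6, 30.4 and 42.6 CPM in the medial libraries, against 58.7 and 54.6 CPM in the lateral ones, with a 4.03-fold range in medial cortex (−1.02, SE 0.50, adjusted p = 0.215). Kif2a, which depolymerises microtubules in growing axons and also at spindle poles, had 66.5, 91.0 and 85.8 CPM in the medial libraries, against 102 and 110 CPM in the lateral ones (−0.39, SE 0.14, adjusted p = 0.124). Placed with the mitotic genes it would be their only member with a negative log2 fold change.

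Per length of transcript Kif5c, Kif21a, Kif21b and Kif5b were the highest kinesins in both regions. The length is that of the longest protein-coding transcript in GENCODE M21, and levels are CPM per kilobase. Kif5c ranked first, at 95.5 in medial and 128 in lateral cortex. In medial cortex Kif21a (68.2), Kif21b (66.1) and Kif5b (65.4) followed and lay within the spread of their libraries, and then Kif11 (57.6), the highest mitotic kinesin. In lateral cortex the order after Kif5c was Kif21b (111), Kif21a (59.9), Kif5b (58.9) and Kif1b (53.4), and Kif11 ranked 8 at 41.6. The mitotic genes tested spanned 4.62 to 57.6 in medial and 3.20 to 41.6 in lateral cortex.

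**Figure D4:**
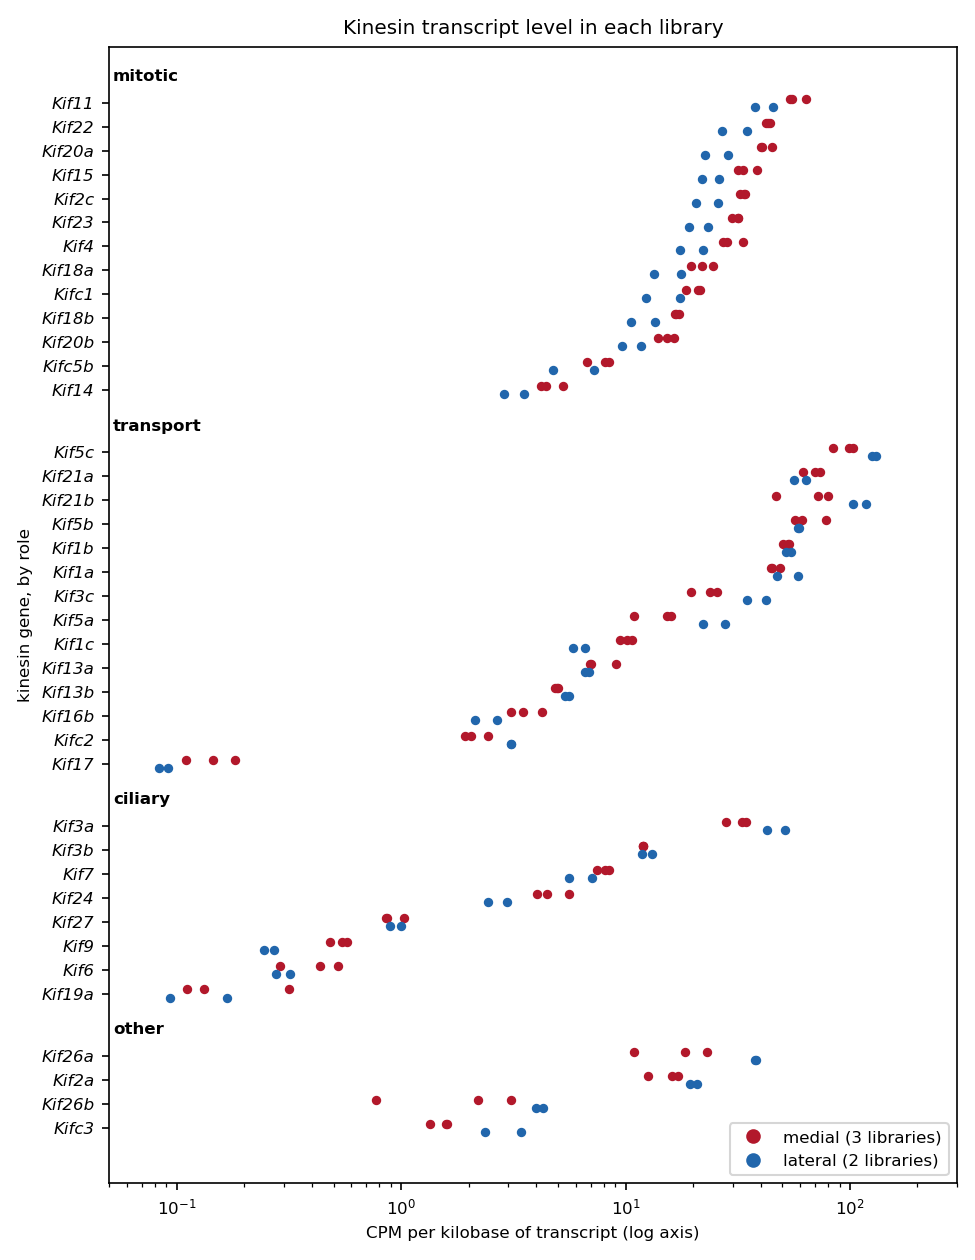
CPM per kilobase of transcript (log axis) of each tested kinesin gene in the 3 medial and 2 lateral libraries, by role, with medial points above lateral ones in each row. Transport genes span from below 0.2 for Kif17 to above 80 for Kif5c, and all mitotic genes except Kifc5b have their medial points right of their lateral points.

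Of the genes that work with kinesins, those of the spindle that passed were higher in medial cortex and the cargo adaptors that passed were lower, while most of both lists did not pass. In a list of 25 spindle and midzone genes 7 were higher and 0 lower, where 4.62% of all genes tested were higher, with a median log2 fold change of 0.51. At an unadjusted p under 0.05 there were 23 higher and 1 lower, where 2588 of the 16229 genes tested were higher and 2643 lower. DESeq2 called 22 higher and 1 lower, where it called 1737 of all genes higher and 1790 lower. The 7 higher in edgeR were Aurka (0.63), Nusap1 (0.47), Aurkb (0.65), Tpx2 (0.50), Incenp, Hmmr and Bub1b. Aurkb, the kinase of the passenger complex that Kif20a carries, had 83.0, 75.3 and 76.6 CPM in the medial libraries, against 56.2 and 43.9 CPM in the lateral ones (adjusted p = 0.0382). Tpx2, which nucleates spindle microtubules, was higher by 0.50 on the log2 scale (SE 0.10, adjusted p = 0.0393). Cenpe, the kinetochore motor, had 232, 229 and 217 CPM in the medial libraries, against 177 and 135 CPM in the lateral ones, and did not pass (0.54, SE 0.13, adjusted p = 0.0522). Numa1, which gathers microtubules at the spindle poles, was the member with a negative log2 fold change and did not pass in edgeR (−0.37, SE 0.10, adjusted p = 0.0708). The partners of Kif23 and Kif4 did not pass either, with Racgap1 at 0.32 (adjusted p = 0.0786) and Prc1 at 0.50 (adjusted p = 0.0519).

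Of 19 kinesin light chains and cargo adaptors 4 were lower and 0 higher, where 5.1% of all genes tested were lower, with a median of −0.35. At an unadjusted p under 0.05 there were 11 lower and 0 higher, where 2643 of the 16229 genes tested were lower. DESeq2 called 8 lower and 0 higher, where it called 1790 of all genes lower. The 4 lower in edgeR were Kifap3, Trak1, Grip1 and Madd. Trak1, which links Kif5 motors to mitochondria, had 110, 133 and 141 CPM in the medial libraries, against 191 and 215 CPM in the lateral ones (−0.66, SE 0.13, adjusted p = 0.0372). Grip1, which links Kif5 to glutamate receptors, had a log2 fold change of −0.66 (adjusted p = 0.0416), and Madd, which ties Kif1 motors to vesicles, one of −0.56 (adjusted p = 0.0430). The light chain Klc1, which joins cargo to Kif5, did not pass (−0.24, SE 0.09, adjusted p = 0.120).

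Dynein, the motor that runs the other way, and its activator dynactin gave 3 lower and 1 higher of 22, with a median of −0.23. Over all genes tested 5.1% were lower and 4.62% higher, and 1 of 22 is close to the share of higher genes. By unadjusted p under 0.05, 11 of the 22 were lower and 1 higher, where 2643 of the 16229 genes tested were lower and 2588 higher. DESeq2 called 9 of them lower and 1 higher, where it called 1790 of all genes lower and 1737 higher. The dynein chains Dync1li1 (−0.41, adjusted p = 0.0354), Dynlt1b (−0.69, adjusted p = 0.0381) and Dync1i2 (−0.50, adjusted p = 0.0405) were lower. Nde1, a dynein regulator of dividing progenitors, was higher (0.52, SE 0.10, adjusted p = 0.0405). In a list of 19 genes of intraflagellar transport and hedgehog transduction edgeR called 0 in either direction, with a median of 0.07. At an unadjusted p under 0.05 there were 4 higher and 2 lower, where 2588 of the 16229 genes tested were higher and 2643 lower. DESeq2 called 2 higher and 0 lower, where it called 1737 of all genes higher and 1790 lower. Its members with the most reads were Gli3, at a log2 fold change of 0.38 (adjusted p = 0.0817), and Ift46, at −0.34 (adjusted p = 0.0906). Ift74 had the lowest p of the list, at 0.48 (adjusted p = 0.0582).

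**Figure D5:**
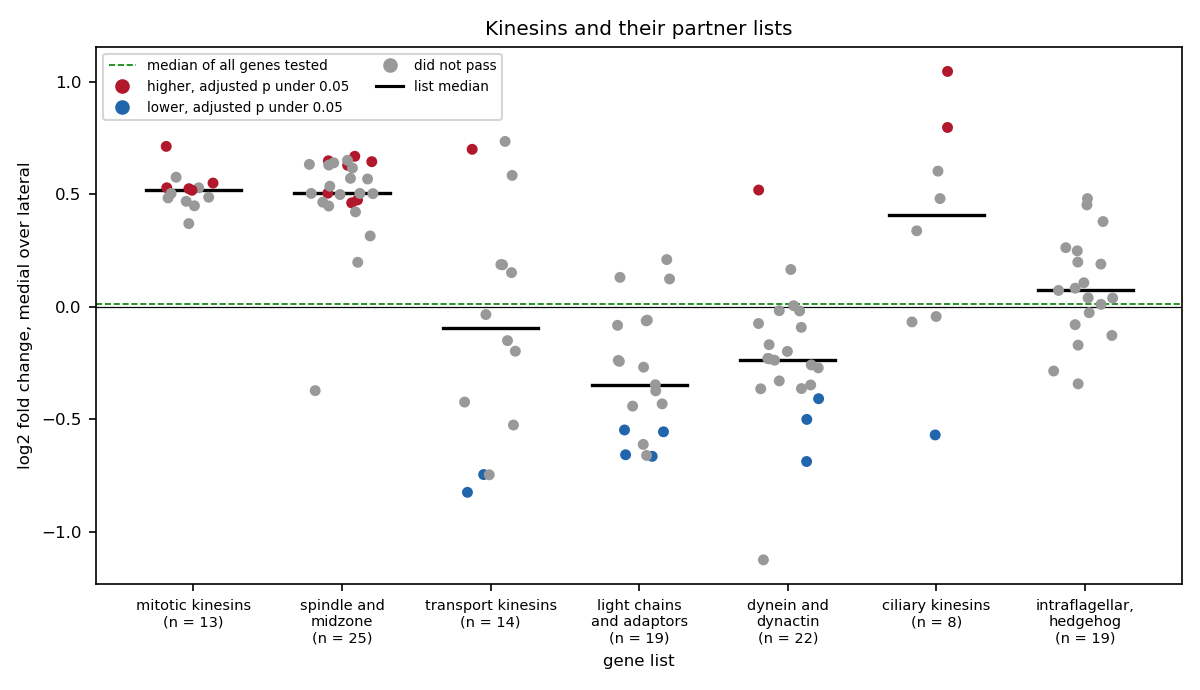
Log2 fold change, medial over lateral, of mitotic, transport and ciliary kinesins and of 4 lists of genes that work with them, 1 point a gene, with list medians as black bars. The medians are 0.52 and 0.51 for mitotic kinesins and spindle genes, −0.35 for light chains and adaptors, and 0.01 for all genes tested (green line).

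Markers of several cell types differed between the regions too, each summed over its list. Counts are edgeR calls unless stated, where 4.62% of all genes tested were higher and 5.1% were lower. The sum of 8 neuron genes was 1200, 1740 and 2060 CPM in the medial libraries, against 2910 and 3750 CPM in the lateral ones, with 4 of 8 lower and a median log2 fold change of −0.90. Radial glia genes summed to between 2930 and 3620 CPM in medial and between 1970 and 2300 CPM in lateral libraries, with 2 of 8 higher. Intermediate progenitor genes overlapped, between 657 and 844 CPM in medial and between 709 and 843 CPM in lateral libraries, and 0 of 5 passed in edgeR, where 1 higher and 1 lower had an unadjusted p under 0.05, as many as DESeq2 called. Cajal-Retzius genes summed to between 474 and 591 CPM in medial and between 151 and 190 CPM in lateral libraries, with 5 of 5 higher. The sums of GABAergic genes were between 2.45 and 15.4 CPM in medial and between 61.5 and 88.6 CPM in lateral libraries, with 5 of 6 lower. Endothelial genes summed to between 68.5 and 82.4 CPM in medial and between 90.3 and 103 CPM in lateral libraries, with 1 of 5 lower. Erythroid genes were between 250 and 337 CPM in medial and between 358 and 410 CPM in lateral libraries, with 1 of 5 lower. Microglia genes were between 21.3 and 41.5 CPM in medial and between 16.5 and 22.1 CPM in lateral libraries, with 0 of 5 passing in edgeR, in DESeq2 or at an unadjusted p under 0.05. Choroid plexus and ependymal genes were between 17 and 25 CPM in medial and between 7.83 and 17 CPM in lateral libraries, with 2 of 4 higher, and Kl was too low to test. DESeq2 called 8 of 8 neuron, 6 of 6 GABAergic, 4 of 5 endothelial and 1 of 5 erythroid genes lower. It called 5 of 8 radial glia, 5 of 5 Cajal-Retzius and 3 of 4 choroid plexus and ependymal genes higher. Of all 16229 genes tested DESeq2 called 1737 higher and 1790 lower. Which cells held the kinesin RNA was not tested, nor was the part of cell type markers in these differences. Read depth was greater in both lateral libraries. With reads thinned to the smallest library the mitotic median was 0.50, against 0.52 with all reads, and edgeR still called 9 of the 12 called kinesins. Beyond this the part of read depth was not tested.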

How the data were processed

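Polyadenylated RNA was sequenced without marking the strand, per the labels' protocols. The deposited values are whole-number read counts per gene symbol, 1 file per sample, which the authors did not normalise. BWA, STAR, HTSeq and the build mm9 appear in the submitters' processing notes, with no versions or roles. Reads assigned to no gene were between 23.1% and 28.7% of each file and stayed out of library sizes and tests. Counts were filtered with filterByExpr (count 10, total 15), scaled by TMM and compared by the quasi-likelihood test of edgeR 4.0.16 (R 4.3.3). The model held region alone and left 3 residual degrees of freedom. P-values were adjusted over 16229 genes, with a threshold of 0.05. The SE is the log2 fold change over the root of F. A floor of 3 reads lay between 0.0456 and 0.105 CPM, and floors cover counting error only.

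The test was also run on simulated counts in which 200 genes were changed 2-fold or 4-fold. Most kinesin differences here were smaller, so that run cannot say how the test performs on them. As alternatives, DESeq2 1.42.0, an older form of the edgeR test, other scalings and filters and reads thinned to the smallest library were tried. Each library was also left out once, and blocks were fitted for the replicate number and for a tag that the names of the deposited tables carry. Members and lists were chosen with earlier results of these data known. Named genes were the kinesins, up to 4 partner genes a list past the threshold with the lowest p (or 2 of the highest level where none passed) and Cenpe. Incenp, Hmmr, Bub1b, Racgap1, Prc1, Klc1, Ift74 and the cell type genes were named after their values were seen. Transcript lengths, overlaps and promoters come from GENCODE M21 and RefSeq on GRCm38, not the build of the counts. Map2, Kif1bp and Kbp of the lists were not analysed under these symbols, but the older symbol of Kif1bp, 2510003E04Rik, was.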

Additional observations from a re-analysis of the deposited data

How the results depend on the processing

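All 12 called kinesins kept their direction in all 14 alternatives, and without any 1 library their log2 fold change moved by at most 1.43 times, but calls depended on the fit. Of the 27 others, 16 moved by over 1.5 times without 1 library, among them Kif18a, Kif18b and Kif22 (1.58, 1.53 and 1.57 times), Kifc1 (2.02), Kifc5b (3.81), Kif7 (1.91), Kif13a (3.6) and Kif26b (1.61). Of the 12, edgeR still called 5 without a low-count filter, 7 with the replicate block, 8 by its older test, 9 with library size alone and 9 after thinning. Leaving out 1 library at a time, edgeR called between 0 and 6 kinesins higher, between 0 and 6 lower, between 0 and 1027 of all genes higher and between 0 and 1137 lower, and between 0 and 8 of the partner genes higher and between 0 and 8 lower. Without medial library 2, 15 kinesins were higher and 8 lower at an unadjusted p under 0.05. Of the 16496 genes tested in that fit 2038 were higher and 1997 lower. Without medial library 2, lateral library 1 or lateral library 2 the mitotic median lay between 0.37 and 0.69, the higher value without lateral library 1. DESeq2 called 15 kinesins higher and 8 lower, 25 partner genes higher and 18 lower, and 1737 of all genes higher and 1790 lower. Without a low-count filter 2 kinesins and 1 partner gene were higher and 496 of all genes, with 29303 genes tested. The older edgeR test called 5 kinesins and 692 of all genes higher. Thinning to the smallest library also gave 5 kinesins higher, with 644 of the 15772 genes then tested. A filter of 1 CPM gave 13 partner genes higher, with 805 of the 14002 genes then tested.

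The replicate block by label number called 5 kinesins higher and 4 lower, 454 of all genes higher and 622 lower, and 10 partner genes higher and 4 lower. Deviations from the group means had correlations over genes of 0.03 and −0.39 between same-numbered libraries. Libraries that share a tag in the deposited names had correlations of 0.39 and 0.38. With 2 lateral libraries the deviation of 1 is that of the other with its sign reversed. The −0.39 and 0.39 are thus the same value, and these correlations cannot tell which libraries are pairs. The main model used neither the numbers nor the tag as pairs. With a block by that tag 19 kinesins were higher and 10 lower, 29 partner genes higher and 23 lower, and 2634 of all genes higher and 2727 lower, with 1 residual degree of freedom. Of the 27 kinesins that did not pass, 5 changed sign. Kif19a was at −0.078 with the replicate block, and Kif27 at 0.005. With library size alone Kif1b, Kif27 and Kif3b were at 0.039, 0.028 and 0.006, and Kif5b was at 0.00 with the block by tag. Leaving out 1 library at a time, Kif19a lay between −0.067 and 1.053, Kif1b between −0.077 and 0.004, Kif27 between −0.134 and 0.037 and Kif3b between −0.143 and 0.006. The cause of these changes was not tested. Library size alone moved the median of all genes to 0.08.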

Other observations

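Within motor families the shares of several members, though not all, differed between the regions. They are shares of the summed CPM per kilobase of the family in a library, which do not depend on scaling between libraries. These families were chosen after the values were seen, and no test was made. Kif5a made up 6.33%, 8.73% and 9.09% of the Kif5 transcripts in medial libraries 1 to 3, against 10.8% and 12.8% in lateral libraries 1 and 2. Kif5b made up 45.3%, 34.7% and 32.2% in the medial libraries, against 28.6% and 27.0% in the lateral ones. Kif5c made up 48.3%, 56.6% and 58.7% in the medial libraries, against 60.7% and 60.2% in the lateral ones. The neuronal Kif5a thus had a lower share and the widely expressed Kif5b a higher share in each medial library than in either lateral one. A share also rises where the other members are lower, and Kif5b itself did not pass in edgeR (adjusted p = 0.526).

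In the pair Kif21a and Kif21b, Kif21b made up 43.1%, 49.5% and 53.3% of their sum in the medial libraries, against 62.0% and 67.7% in the lateral ones. Among the Kif1 genes Kif1c held 9.45%, 9.47% and 9.05% in the medial libraries, against 6.26% and 4.88% in the lateral ones. The Kif1b share overlapped, at 47.3%, 49.1% and 48.0% in the medial libraries, against 49.1% and 46.0% in the lateral ones. Of the Kif3 transcripts, Kif3a kept a share between 47.0% and 48.0% in medial and between 47.9% and 48.1% in lateral libraries, while Kif3b held 20.1%, 17.4% and 16.6% in the medial libraries, against 13.3% and 12.3% in the lateral ones. Kif3c held 32.8%, 34.6% and 35.6% in the medial libraries, against 38.8% and 39.6% in the lateral ones. Kif3b itself did not pass in edgeR (adjusted p = 0.604). The ratio of Kif3a to Kif3b was 2.34, 2.76 and 2.89 in the medial libraries, against 3.61 and 3.92 in the lateral ones.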
